A study of Mus musculus with 9 samples.

Results

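OAT-1746, an oral inhibitor of both arginases, was given to glioma-bearing mice together with an antibody against PD-1, and CD11b+ cells of these mice (COMB) were compared with CD11b+ cells of mice given the antibody alone (anti-PD-1). The comparison takes 5 of the 9 libraries of the study, the 3 whose titles name the combination and the 2 whose titles name the checkpoint antibody, over all protein-coding genes. It asks what the inhibitor adds on top of the antibody. All 4 groups were adult male C57BL/6J mice with GL261 luc+ tdT+ cells, a mouse glioma line made to express luciferase and tdTomato, implanted in the striatum. The inhibitor was given by mouth from the day after implantation, the antibody was injected later into the peritoneum, and CTR mice received saline. CD11b+ cells were sorted from the tumor-bearing hemisphere, and poly-A RNA was sequenced from each sort. The remaining 4 libraries, 2 CTR and 2 OAT-1746, entered the shared estimate of spread and the test of whether the inhibitor's contrast differs with and without the antibody.

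For replicate 2 of anti-PD-1 the treatment field gives PD-2 as the antibody's target. It was grouped by its title, and the first results are given with and without it. Read pairs counted on genes numbered 14356928 and 18796479 in anti-PD-1 replicates 1 and 2, and 13048075, 16144518 and 14806017 in COMB replicates 1, 2 and 3. The CTR libraries held 17490386 and 17729568, and the OAT-1746 libraries 17380045 and 16784406. Of 21890 protein-coding genes, 12538 passed the count filter and were tested. Levels below are CPM, counts scaled to an equal library total, after TMM scaling, which sets a factor per library so that most genes match between libraries, and differences are log2 fold changes of COMB over anti-PD-1.

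Arginase splits arginine into ornithine and urea. Myeloid cells that express it lower the arginine available to T cells, and the same amino acid feeds nitric oxide and polyamine synthesis. PD-1 is an inhibitory receptor of activated T cells and NK cells, so a blocking antibody acts first on lymphocytes, and myeloid cells meet its effects through cytokines such as interferons. In a mouse glioma the CD11b+ fraction holds resident microglia and infiltrating monocytes and macrophages, with smaller numbers of neutrophils, dendritic cells and NK cells, all of which can carry CD11b. Immediate early genes are transcribed within minutes of a stimulus from factors already present in the cell, and in microglia they also respond to enzymatic dissociation of the tissue.

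The sort label was checked on 4 genes. Itgam, which encodes CD11b itself, lay at 294 and 327 CPM in anti-PD-1 and 366, 307 and 328 CPM in COMB. Csf1r, the receptor for the growth factor of microglia and macrophages, lay at 7283 and 7199.8 CPM and 8849, 6926 and 7446 CPM and ranked 6 among all tested genes by its mean CPM. The pan-leukocyte gene Ptprc lay at 459.9 and 759.5 CPM and 506, 438 and 553 CPM, and Aif1, which encodes Iba1, at 272 and 273 CPM and 248, 399 and 359 CPM. The groups overlapped for each of the 4.

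The COMB libraries did not stand at equal distances. The Pearson correlation of log2 CPM across genes was 0.989 between COMB replicates 2 and 3, 0.978 between COMB 1 and 2, and 0.983 between COMB 1 and 3. It was 0.980 between the anti-PD-1 libraries and 0.981 between anti-PD-1 1 and COMB 1. COMB 1 was therefore as near to an anti-PD-1 library as to COMB 2, and values that only COMB 2 and 3 share are pointed out where they occur.

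The main test was an edgeR quasi-likelihood fit over all 9 libraries, with p-values adjusted over the 12538 genes. They measure the spread between these samples. By edgeR, 0 genes (0%) passed an adjusted p of 0.05, where the lowest value reached was 0.206. An unadjusted p under 0.05 was found for 907 genes, 7.23% of those tested, of which 659 were lower in COMB (5.26%) and 248 higher (1.98%). The lower genes made up 72.7% of the 907, and 64.1% under DESeq2 size factors, 68.9% under library size alone and 62.6% once gene length and GC content were corrected for. The median log2 fold change over all tested genes was -0.01. Groups did not overlap in 2053 genes with all COMB libraries below both anti-PD-1 libraries (16.4%) and in 1258 with all COMB libraries above (10.03%).

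Other tools passed more genes. DESeq2 called 47 genes, 40 lower (0.319%) and 7 higher (0.0558%), and limma voom called 35, 34 of them lower, with 30 genes in both sets. In edgeR the count also depended on which libraries entered. It was 52 without OAT-1746 replicate 1 and 41 without OAT-1746 replicate 2, every one lower, and all 41 were among the 52. It was 5 without anti-PD-1 replicate 1 (Gadd45b, Tnf, Pmaip1, Nr4a3 and Egr1) and 0 without anti-PD-1 replicate 2, the library with the PD-2 label. The count at an unadjusted p under 0.05 was 514 without anti-PD-1 replicate 2, 479 without COMB replicate 2 and 453 without COMB replicate 3. DESeq2, voom and both edgeR fits without an OAT-1746 library shared 15 genes, all lower in COMB: Atf3, Ccl3, Ccl4, Egr1, Errfi1, Gadd45b, Ier5, Jun, Jund, Map3k8, Nfkbiz, Ppp1r10, Sertad1, Tnf and Vcan.

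Of the 20 smallest p-values 18 belonged to genes lower in COMB, and 7 to the list of immediate early genes. Egr1 (ENSMUSG00000038418), a zinc finger transcription factor and an immediate early gene, had the smallest. Its level was 655 and 1117 CPM in the anti-PD-1 libraries and 224, 231 and 256 CPM in the COMB libraries. All 3 COMB libraries lay close together and below both anti-PD-1 libraries, which themselves lay apart. The log2 fold change was -1.90 (SE 0.24, unadjusted p 2.46e-05, adjusted p 0.206), -1.46 without anti-PD-1 replicate 2 and -2.24 without replicate 1. Tnf (ENSMUSG00000024401, GRCm38 chr17:35199381-35202007) encodes tumor necrosis factor. It lay at 95.0 and 149.96 CPM in anti-PD-1 and 46.5, 43.2 and 36.9 CPM in COMB. The highest COMB library was under the lower anti-PD-1 library, and the log2 fold change was -1.54 (SE 0.20, adjusted p 0.206), -1.17 without anti-PD-1 replicate 2.

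The other 8 of the 10 lower genes with the smallest p, among those at a mean of 5 CPM or more whose groups do not overlap, were Gadd45b, Map3k8, Nfkbiz, Jun, Dusp5, Adamts1, Ier2 and Gdf15. Jun, the AP-1 subunit, lay at 1587 and 2184 CPM in anti-PD-1 and 821, 671 and 718 CPM in COMB. Nfkbiz encodes an atypical nuclear inhibitor of the kappaB family that NF-kB signaling induces. It lay at 230.4 and 368 CPM and 98.6, 93.2 and 103 CPM, so each COMB library held less than the lower anti-PD-1 library did. Map3k8, a kinase that relays Toll-like receptor and TNF signals to ERK, lay at 33.4 and 29.9 CPM and 17.6, 15.7 and 16.2 CPM, with little spread in either group. Gdf15, a stress-induced cytokine of the TGF-beta family, was the least abundant of the 10, at 8.08 and 12.2 CPM and 3.19, 0.990 and 1.70 CPM. The log2 fold changes were -1.36 for Jun, -1.61 for Nfkbiz, -0.94 for Map3k8 and -2.38 for Gdf15. They were -1.24 for Gadd45b, a growth arrest gene, -1.19 for Dusp5, an ERK phosphatase, -1.95 for the secreted protease gene Adamts1 and -0.85 for Ier2. Adjusted p-values ran from 0.206 to 0.403 over the 10. DESeq2 and voom called all 10, and edgeR called all 10 without OAT-1746 replicate 1, 6 without OAT-1746 replicate 2 and 3 without anti-PD-1 replicate 1.

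**Figure D1:**
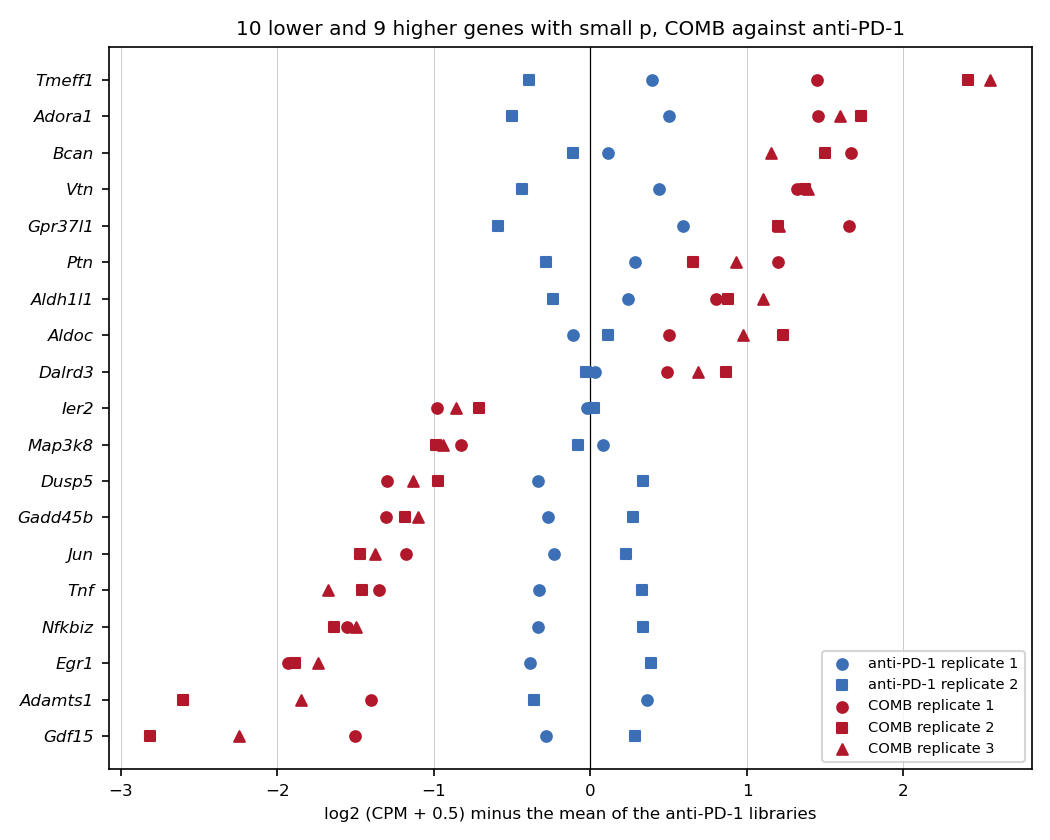
Level of the 10 lower genes with the smallest p and 9 of the 10 higher ones in each of the 5 libraries, as log2 (CPM + 0.5) minus the mean of the anti-PD-1 libraries; each point is 1 library. COMB and anti-PD-1 points do not overlap for these genes, which is part of how they were chosen.

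Immediate early genes were then taken as a whole list of 40, of which 38 were tested. All 38 had a negative log2 fold change, also under both other scalings. An unadjusted p under 0.05 was reached by 29, all lower, and in 32 all COMB libraries lay below both anti-PD-1 libraries, beside 5.26% and 16.4% of all genes tested. The median log2 fold change was -0.94, beside -0.01 over all genes. DESeq2 called 10 of the 38, all lower, beside 0.319% of all genes. Without anti-PD-1 replicate 2 the median was -0.59 and 15 were lower at an unadjusted p under 0.05, and without anti-PD-1 replicate 1 the median was -1.18 and 27 were lower. The summed level of the 40 members, tested or not, was 16697 and 21425 CPM in anti-PD-1 and 10474, 11413 and 11361 CPM in COMB. It was 16832 and 16188 CPM in CTR and 24601 and 35316 CPM in OAT-1746. The COMB libraries were the lowest 3 of the 9 and the OAT-1746 libraries the highest 2. The most abundant member was Rhob, which encodes a small GTPase, at 2225 and 2602 CPM in anti-PD-1 and 1999, 1946 and 1796 CPM in COMB (log2 fold change -0.33, and -0.21 without anti-PD-1 replicate 2).

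Some members of the list belong to the AP-1 family, of which Fosl1 was not tested. Fos lay at 1759.6 and 2128 CPM in anti-PD-1 and 854, 968 and 1020.0 CPM in COMB, without overlap (log2 fold change -1.04, SE 0.27). Fosb lay at 102 and 399 CPM and 53.4, 43.0 and 44.9 CPM, and here the size of the difference rested on anti-PD-1 replicate 2: it was -2.41 with that library and -1.12 without it. Jund had a log2 fold change of -1.03 and Atf3, which dimerizes with Jun proteins, of -1.54. The orphan nuclear receptor gene Nr4a1 lay at 114 and 307 CPM and 66.0, 49.5 and 64.6 CPM, again with the anti-PD-1 libraries far apart (-1.81, and -0.92 without replicate 2). Other members were lower as well. Zfp36, whose product destabilizes the Tnf mRNA, lay at 1771 and 2280.0 CPM and 983, 1267 and 1317 CPM (-0.77). Btg2, an antiproliferative gene, lay at 548 and 895 CPM and 398, 503 and 458 CPM (-0.67, -0.27 without anti-PD-1 replicate 2 and -0.99 without replicate 1), and Ier5 had a log2 fold change of -0.99. None of these passed an adjusted p of 0.05 in edgeR with all 9 libraries, and the part of tissue dissociation in them was not tested, since no label records its conditions per library.

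**Figure D2:**
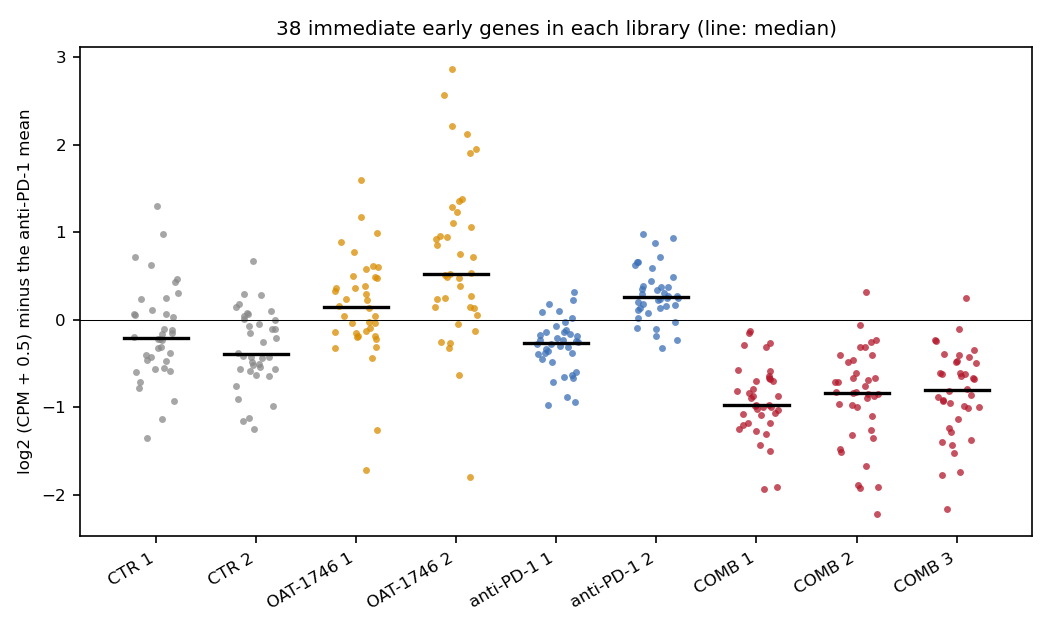
The 38 tested immediate early genes in each of the 9 libraries, as log2 (CPM + 0.5) minus the mean of the anti-PD-1 libraries; points are genes and lines the median per library. The medians of the COMB libraries lay at -0.97, -0.83 and -0.80, below the 6 others.

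Promoters were searched in this list because its members lay in 1 direction. RefSeq promoters on GRCm38.p6, each 250 bases before to 50 bases after a start, were found for 29 of the 38 genes, 38 promoters in all. None was found for Arc, Dusp4, Egr1, Egr3, Gem, Ier2, Klf10, Myc and Phlda1. The motifs, searched on both strands, were the CRE (TGACGTCA), the AP-1 site (TGACTCA), the E-box (CACGTG), and by name the CArG box, a kappaB site and the ISRE. Shares are given beside those of all 32851 promoters and of the 12787 promoters of tested genes. A CArG box was in 6 of the 38 promoters (15.8%, beside 1.63% and 1.24%). Of the 6, 4 belong to Egr2 and 3 of these overlap and hold the same box, so by gene it was 3 of 29 (10.3%, beside 1.52% of tested genes). A CRE was in 4 promoters (10.5%, beside 1.79% and 2.89%), a kappaB site in 6 (15.8%, beside 4.51% and 5.31%) and an E-box in 6 (15.8%, beside 7.15% and 9.57%). An AP-1 site was in 1 (2.63%, beside 5.20% and 3.73%) and an ISRE in 2 (5.26%, beside 3.44% and 3.33%). The 6 promoters below show a CRE (Btg2 and Plk2), CArG boxes (Dusp5 and Zfp36), a kappaB site (Fos) and an E-box (Gadd45b). Gadd45b is not in this list and is shown as 1 of the 10 lower genes with the smallest p. The motif named for each gene is in capitals, read 5′ to 3′ on the gene's strand. A longer run in capitals joins matches that touch. An ISRE match in the Plk2 promoter is left in lower case. A match describes the letters only. Positions are chr1:134079106-134079405 on the minus strand, chr13:110394794-110395093 on the plus strand, chr19:53528895-53529194 on the plus strand, chr7:28379179-28379478 on the minus strand, chr12:85473640-85473939 on the plus strand and chr10:80929841-80930140 on the plus strand.
Btg2: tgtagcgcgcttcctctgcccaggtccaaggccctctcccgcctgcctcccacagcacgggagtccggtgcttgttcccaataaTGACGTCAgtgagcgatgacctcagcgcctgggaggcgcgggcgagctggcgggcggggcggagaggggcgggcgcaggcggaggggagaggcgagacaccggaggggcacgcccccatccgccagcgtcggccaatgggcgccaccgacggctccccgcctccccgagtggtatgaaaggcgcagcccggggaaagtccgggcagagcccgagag
Plk2: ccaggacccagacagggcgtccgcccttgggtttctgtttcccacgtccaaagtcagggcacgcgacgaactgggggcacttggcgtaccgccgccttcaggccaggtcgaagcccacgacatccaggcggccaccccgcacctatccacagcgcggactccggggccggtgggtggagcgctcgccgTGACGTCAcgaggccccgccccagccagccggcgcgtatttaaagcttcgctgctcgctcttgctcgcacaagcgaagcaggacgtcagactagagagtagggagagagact
Dusp5: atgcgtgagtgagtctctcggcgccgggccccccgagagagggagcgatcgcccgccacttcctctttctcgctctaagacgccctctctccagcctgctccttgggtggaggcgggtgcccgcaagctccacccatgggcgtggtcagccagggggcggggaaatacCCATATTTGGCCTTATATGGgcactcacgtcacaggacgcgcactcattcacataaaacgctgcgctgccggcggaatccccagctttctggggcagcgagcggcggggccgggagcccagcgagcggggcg
Zfp36: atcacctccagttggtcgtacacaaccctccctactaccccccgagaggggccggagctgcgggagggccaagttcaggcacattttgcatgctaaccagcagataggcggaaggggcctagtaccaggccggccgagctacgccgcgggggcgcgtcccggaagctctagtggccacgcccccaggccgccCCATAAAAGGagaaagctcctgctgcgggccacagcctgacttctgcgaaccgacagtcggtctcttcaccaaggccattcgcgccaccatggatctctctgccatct
Fos: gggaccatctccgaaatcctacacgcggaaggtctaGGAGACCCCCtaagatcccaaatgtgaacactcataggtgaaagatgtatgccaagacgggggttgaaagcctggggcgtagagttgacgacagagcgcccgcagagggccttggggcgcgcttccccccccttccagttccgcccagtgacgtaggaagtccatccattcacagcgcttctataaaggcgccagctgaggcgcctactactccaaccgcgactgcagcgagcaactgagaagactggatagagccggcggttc
Gadd45b: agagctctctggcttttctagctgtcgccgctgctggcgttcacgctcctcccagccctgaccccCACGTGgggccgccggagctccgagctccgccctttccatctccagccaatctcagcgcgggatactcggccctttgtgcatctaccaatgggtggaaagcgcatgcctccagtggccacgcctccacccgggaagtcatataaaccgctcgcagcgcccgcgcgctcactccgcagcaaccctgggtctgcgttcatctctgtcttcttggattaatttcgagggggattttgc

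These 6 genes were lower in COMB without overlap of the groups, Plk2, a polo-like kinase gene, at 14.8 and 21.2 CPM against 8.23, 10.4 and 9.43 CPM (-0.95). Among the 10 lower genes with the smallest p, 6 had a promoter entry, with an E-box in 2 of 7 promoters, a CArG box in 1 and 0 matches to the other 4 motifs, beside 9.57% and 1.24% of the promoters of tested genes. Among the 10 higher genes, 9 had an entry, with an ISRE in 1 of 11 promoters, beside 3.33%, and 0 matches to the others.

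NF-kB subunits, inhibitors and targets made a list of 28, all tested, of which 10 are also in another list. Of these, 11 were lower and 0 higher at an unadjusted p under 0.05, 18 had all COMB libraries below both anti-PD-1 libraries, beside 5.26% and 16.4% of all genes, and the median log2 fold change was -0.41. Without anti-PD-1 replicate 2 the median was -0.25 and 6 were lower. Among subunits, Rel lay at 42.7 and 77.6 CPM in anti-PD-1 and 34.0, 27.4 and 29.1 CPM in COMB (-0.999, and -0.50 without anti-PD-1 replicate 2). Among inhibitors, Nfkbid lay at 38.8 and 65.1 CPM and 18.99, 17.9 and 19.2 CPM (-1.47), while Nfkbia, the most abundant gene of the list, lay at 781 and 732 CPM and 466, 658 and 589 CPM, a smaller difference (-0.41).

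Cytokines as a list (18, of which 16 tested) had 4 lower and 1 higher at an unadjusted p under 0.05, beside 5.26% and 1.98% of all genes, and a median of -0.58, which was -0.01 without anti-PD-1 replicate 2, with 4 lower. Without anti-PD-1 replicate 1 it was -0.72, with 9 lower. The 4 were Tnf, Il6, Il15 and Csf1. Il15 encodes the cytokine that keeps NK cells and memory T cells alive. It lay at 21.6 and 16.1 CPM in anti-PD-1 and 10.1, 9.83 and 9.29 CPM in COMB, with all COMB libraries at nearly the same level (-0.95, SE 0.22). Il6 lay at 6.13 and 8.06 CPM and 3.04, 3.83 and 3.40 CPM (-1.05). Csf1, the ligand of the Csf1r receptor, lay at 98.5 and 102 CPM and 76.3, 31.3 and 33.6 CPM, and here COMB 1 was nearer to anti-PD-1 than to COMB 2 and 3 (-1.09, and -1.62 without COMB 1). Tnfsf13b, the B cell survival factor BAFF, was the higher one at 27.9 and 47.0 CPM and 46.6, 74.97 and 71.5 CPM, with COMB 1 inside the range of anti-PD-1 (0.78, 0.45 without anti-PD-1 replicate 1 and 1.21 without replicate 2). Il1b was high in anti-PD-1 replicate 2 alone, 237 and 1060.1 CPM against 288, 454 and 483 CPM, and its log2 fold change of -0.67 turned to 0.79 without that library.

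Chemokines did not share a direction. Of 19 tested from a list of 21, 5 were lower and 1 higher at an unadjusted p under 0.05, beside 5.26% and 1.98% of all genes. The median was -0.06, with 10 of the 19 negative, and 10 were positive without anti-PD-1 replicate 1 or COMB replicate 3. Without COMB replicate 3 there were 3 lower. The higher count was 0 without COMB replicate 2 and 2 without COMB replicate 1. Ccl3 and Ccl4, which encode early-induced inflammatory chemokines, lay at 70.6 and 88.1 CPM against 31.7, 24.6 and 27.9 CPM and at 158 and 178 CPM against 65.3, 73.8 and 64.4 CPM, without overlap (-1.499 and -1.31). The monocyte attractant Ccl2 lay at 175 and 184 CPM against 82.8, 100.1 and 89.6 CPM (-0.98), and the CXCR3 ligand Cxcl10 at 554 and 605 CPM against 288, 313 and 310.1 CPM (-0.93). Each COMB library was thus below both anti-PD-1 libraries for these 4. Cxcl9, another CXCR3 ligand, did not go with Cxcl10: it lay at 529.7 and 1085 CPM and 735, 1518 and 1532 CPM, high in COMB 2 and 3 (0.64, 0.22 without anti-PD-1 replicate 1 and 1.26 without replicate 2). Ccl8 was likewise high in COMB 2 and 3 only, at 3.83 and 2.25 CPM against 3.93, 19.1 and 15.7 CPM (2.10). The 18 chemokine and chemoattractant receptors had 2 lower and 1 higher and a median of 0.19 (0.10 without anti-PD-1 replicate 2), with 0 lower and 0 higher without anti-PD-1 replicate 2 and 0 lower and 4 higher without COMB replicate 1.

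Type I interferon-stimulated genes were the second list with 1 direction. All 29 tested members of 30 had a negative log2 fold change, also under both other scalings, and in 27 all COMB libraries lay below both anti-PD-1 libraries, beside 16.4% of all genes. The median was -0.84, and it stayed between -0.97 and -0.81 when each library in turn was left out. At an unadjusted p under 0.05, 11 were lower and 0 higher, beside 5.26% and 1.98% of all genes. This count depended on single libraries: it was 27 without OAT-1746 replicate 1 and 26 without OAT-1746 replicate 2, and 3 without anti-PD-1 replicate 1, 5 without anti-PD-1 replicate 2, 5 without COMB replicate 2, 4 without COMB replicate 3 and 7 without COMB replicate 1. The summed level was 7644 and 7706 CPM in anti-PD-1, 4081, 4283 and 4408 CPM in COMB, 4866 and 5613 CPM in CTR and 5422 and 1314 CPM in OAT-1746. OAT-1746 replicate 2 held the lowest sum of the 9 libraries and the anti-PD-1 libraries the highest 2.

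Isg15, a ubiquitin-like modifier, lay at 549 and 454 CPM in anti-PD-1 and 200.2, 212 and 199 CPM in COMB. The COMB libraries were within a narrow range, at less than either anti-PD-1 library, and the log2 fold change was -1.30 (SE 0.58, adjusted p 0.688). Ifit3, an RNA sensor partner, lay at 376 and 241 CPM and 133, 96.7 and 96.6 CPM (-1.503, SE 0.47). Irf7, the transcription factor that amplifies the response and the most abundant gene of the list, lay at 1129 and 1103 CPM and 569, 675 and 671 CPM (-0.81, SE 0.64). The groups did not overlap for these 3, and their SEs were wide. All 4 groups share the estimate of spread, and the OAT-1746 libraries lay far apart (Irf7 at 879 and 98.1 CPM). Parp14, an ADP-ribosyltransferase, was the 1 member that DESeq2 called, at 189.6 and 333 CPM and 122, 71.7 and 107 CPM (-1.38, -0.92 without anti-PD-1 replicate 2, DESeq2 adjusted p 0.0413). The GTPases that interferon gamma induces (20 tested) had 1 lower and 0 higher, beside 5.26% and 1.98% of all genes, and the median was -0.04, which was -0.23 without anti-PD-1 replicate 1, 0.16 without anti-PD-1 replicate 2 and 0.20 without COMB replicate 1, the latter with 3 higher.

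For the same reason promoters were searched in this list. Of the 29 genes 20 had an entry, with 23 promoters, and none was found for 9, among them Dhx58, Ifi204, Mx1, Oas2, Parp14, Rtp4, Usp18 and Zbp1. An ISRE was in 12 of the 23 (52.2%), beside 3.44% of all promoters and 3.33% of those of tested genes, an AP-1 site in 3 (13.04%), a kappaB site in 2 (8.70%) and the other 3 motifs in 0. The ISREs of Ifit3 (chr19:34583279-34583578, plus strand) and Isg15 (chr4:156200769-156201068, minus strand) are shown in capitals; the run in Isg15 joins overlapping matches.
Ifit3: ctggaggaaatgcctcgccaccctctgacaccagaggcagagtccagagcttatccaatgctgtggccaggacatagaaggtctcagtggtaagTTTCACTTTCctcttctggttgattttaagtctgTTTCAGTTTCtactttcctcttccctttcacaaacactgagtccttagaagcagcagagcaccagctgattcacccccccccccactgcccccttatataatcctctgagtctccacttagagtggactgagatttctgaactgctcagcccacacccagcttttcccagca
Isg15: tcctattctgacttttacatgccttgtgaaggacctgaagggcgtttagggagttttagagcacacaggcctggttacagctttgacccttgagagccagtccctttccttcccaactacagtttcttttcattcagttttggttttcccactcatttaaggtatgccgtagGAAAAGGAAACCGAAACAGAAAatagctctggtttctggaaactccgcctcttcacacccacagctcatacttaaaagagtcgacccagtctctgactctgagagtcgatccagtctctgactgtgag

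NK cells can carry CD11b, and the study reports on their genes. The list of NK cell receptors and cytotoxic effectors held 32 genes, all tested, of which 10 were named by the study and 2 are also in another list. At an unadjusted p under 0.05, 8 were lower, beside 5.26% of all genes, and 0 higher. In 16 all COMB libraries lay below both anti-PD-1 libraries, beside 16.4% of all genes, and the median was -0.89. The study named its 10 for changes against CTR in these same libraries, most of them as upregulated under anti-PD-1. Their lower levels here are therefore no separate evidence. The size depended on the anti-PD-1 libraries. Without replicate 1 the median was -0.40 with 2 lower, and without replicate 2 it was -1.32 with 14 lower. Without OAT-1746 replicate 1 or 2 the count was 15 or 13, and without COMB replicate 1 it was 5 lower and 1 higher. The summed level was 1825 and 1540.3 CPM in anti-PD-1 and 1095, 1902 and 1803 CPM in COMB. Fcer1g, a signaling chain that microglia and macrophages express as well, supplied most of it at 973 and 965 CPM and 756, 1214 and 1095 CPM, so the sum says little about NK cells. In bulk RNA, fewer cells of a type and less RNA per cell cannot be told apart.

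Tbx21 encodes T-bet, the transcription factor of NK cells and type 1 T cells. It lay at 5.64 and 4.40 CPM in anti-PD-1 and 1.04, 1.39 and 0.851 CPM in COMB. Both anti-PD-1 libraries stood well above all COMB libraries (-2.19, SE 0.42, edgeR adjusted p 0.424, DESeq2 adjusted p 0.00408). Ncr1, which encodes the NK receptor NKp46, lay at 8.57 and 4.90 CPM and 1.34, 2.44 and 2.48 CPM (-1.68), and the receptor gene Klrb1f at 2.93 and 1.97 CPM and 0.593, 0.792 and 0.425 CPM (-1.998). Il2rb, the receptor chain for interleukins 2 and 15, lay at 61.9 and 32.6 CPM and 14.6, 20.4 and 25.03 CPM (-1.24, and -0.71 without anti-PD-1 replicate 1). The groups did not overlap for these 4. Of the 5 libraries COMB 1 had the lowest level of Gzma, Prf1 and Gzmb. Gzma, a granzyme gene, overlapped at 106 and 49.9 CPM and 23.3, 52.8 and 54.1 CPM (-0.84, and -0.20 without anti-PD-1 replicate 1). The perforin gene Prf1 did not overlap, at 45.5 and 25.9 CPM and 7.49, 19.3 and 23.04 CPM (-1.10, and -0.64 without anti-PD-1 replicate 1). Gzmb lay at 59.2 and 36.1 CPM and 13.1, 36.1 and 39.5 CPM, with COMB 2 and 3 at the level of anti-PD-1 replicate 2. Ifng was under 1 CPM in each of the 5 libraries (0.836 and 0.225 and 0.445, 0.792 and 0.709 CPM), and its sign changed with the libraries used (0.33, and -0.35 without anti-PD-1 replicate 2).

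T cell genes, of which 15 of 20 were tested and 2 are also in another list, lay low throughout. Their summed level was 57.9 and 28.5 CPM in anti-PD-1 and 31.4, 25.01 and 27.6 CPM in COMB, with anti-PD-1 replicate 1 alone standing out. Cd3e, Ctla4, Foxp3 and Themis had too few counts to be tested. Raw counts of Cd3e were 4 and 1 in anti-PD-1 and 5, 8 and 7 in COMB. Those of Ctla4 were 5 and 3 against 7, 9 and 13, of Foxp3 4 and 3 against 6, 9 and 12. Themis was mixed, at 7 and 0 against 6, 1 and 5. At an unadjusted p under 0.05, 2 of the 15 tested were lower, among them Pdcd1, and 0 higher, beside 5.26% and 1.98% of all genes. The median of -0.48 turned to 0.35 without anti-PD-1 replicate 1, with 0 lower, and to -0.91 without replicate 2. The count was also 0 without COMB replicate 2 or 3, 1 without CTR replicate 1 or COMB replicate 1, and 4 without anti-PD-1 replicate 2 or either OAT-1746 library. Pdcd1, which encodes PD-1 itself and was the most abundant gene of the list, lay at 12.4 and 6.14 CPM and 6.60, 2.77 and 2.41 CPM, with COMB 1 inside the range of anti-PD-1 (-1.24, -0.65 without anti-PD-1 replicate 1, SE 0.53, adjusted p 0.682). Checkpoint and costimulation genes (19 tested) had 3 lower and 1 higher, beside the same shares, and a median of -0.23 (-0.35 without anti-PD-1 replicate 1). The counts were 0 lower without CTR replicate 1 or COMB replicate 3, 1 lower without either anti-PD-1 library or COMB replicate 2, and 5 lower without OAT-1746 replicate 1 or 2 or COMB replicate 1. The higher one was Pdcd1lg2, which encodes the PD-1 ligand PD-L2, at 7.595 and 11.1 CPM and 6.53, 42.8 and 40.8 CPM, high in COMB 2 and 3 alone (1.68). B cell genes (6 tested) had 0 lower and 0 higher and a median of 0.19, which was -0.02 without anti-PD-1 replicate 2 and 0.77 without replicate 1.

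Of the 10 higher genes with the smallest p, 9 are given here: Vtn, Dalrd3, Bcan, Adora1, Tmeff1, Ptn, Aldh1l1, Aldoc and Gpr37l1, at adjusted p-values from 0.424 to 0.513. DESeq2 called 4 of them (Vtn, Bcan, Adora1 and Tmeff1), and voom called Vtn. Vtn (ENSMUSG00000017344, GRCm38 chr11:78499091-78502324) encodes the adhesion protein vitronectin. It lay at 7.73 and 4.001 CPM in anti-PD-1 and 14.7, 15.2 and 15.5 CPM in COMB. The COMB libraries were nearly equal and above both anti-PD-1 libraries (1.38, SE 0.27, 0.97 without anti-PD-1 replicate 2). Bcan, which encodes the brain matrix protein brevican, lay at 5.23 and 4.40 CPM and 16.3, 14.5 and 11.3 CPM (1.54), and Adora1, an adenosine receptor gene, at 7.18 and 3.32 CPM and 14.3, 17.5 and 15.9 CPM (1.61). These were low levels in each library, far under that of Csf1r. Tmeff1 had the largest of the 9 differences, 2.40, from 2.996 and 1.52 CPM to 6.75, 13.7 and 15.1 CPM, with COMB 1 at the lowest COMB level.

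Several of these are genes of astrocytes, and Aldh1l1 and Aldoc are also members of the astrocyte list. That list lay the same way, in part through these members, which were picked for a small p and no overlap. All 12 of its genes were tested, 0 of them are in another list and 0 were named by the study. At an unadjusted p under 0.05, 4 were higher and 0 lower, beside 1.98% and 5.26%, 7 had all COMB libraries above both anti-PD-1 libraries beside 10.03% of all genes, and the median was 0.74 (0.50 without anti-PD-1 replicate 2 with 1 higher, 0.47 without COMB replicate 1 with 2 higher). The summed level was 177 and 164 CPM in anti-PD-1 and 294, 256 and 249.5 CPM in COMB. The most abundant gene was Slc1a3, a glutamate transporter, at 69.3 and 53.6 CPM and 104, 89.3 and 84.5 CPM (0.59). The list was not uniform: Gfap, its defining intermediate filament, lay at 5.50 and 5.804 CPM in anti-PD-1 and 3.71, 4.29 and 2.84 CPM in COMB, lower in all 3 COMB libraries (-0.65). No gene of the list was at 0 in all 5 libraries. The part of astrocyte RNA in the higher genes was not tested.

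Other brain cell lists gave smaller or unsteady values. Shares over all genes are 1.98% higher and 5.26% lower. Oligodendrocyte genes (12 tested) had 2 higher and 0 lower and a median of 0.59, with a summed level of 382 and 348 CPM in anti-PD-1 and 508, 303 and 373 CPM in COMB, with Cnp the most abundant. COMB 1 was the highest and COMB 2 the lowest of the 5, and the median was 0.16 without COMB replicate 1, 0.27 without anti-PD-1 replicate 2 and 0.92 without replicate 1. The count of 2 was 0 without anti-PD-1 replicate 2, 4 without anti-PD-1 replicate 1, 5 without COMB replicate 2 and 1 without CTR replicate 2, COMB replicate 1 or COMB replicate 3. Endothelial and mural cell genes (12 tested) had 3 higher and 2 lower and a median of 0.20, which was -0.38 without anti-PD-1 replicate 2, with 1 higher, and 1.08 without replicate 1, with 6 higher. The lower count was 1 without either CTR library, COMB replicate 2 or COMB replicate 3. Their summed level was 252 and 203 CPM in anti-PD-1 and 219, 175 and 198 CPM in COMB, with Flt1 the most abundant. Members went apart: the pericyte receptor gene Pdgfrb lay at 2.30 and 2.14 CPM and 4.30, 5.02 and 5.46 CPM (1.15), and the endothelial receptor gene Kdr at 50.2 and 65.4 CPM and 38.3, 19.8 and 23.6 CPM (-1.09). Neuron genes (11 tested) had 0 higher and 0 lower and a median of -0.31 (-0.15 without COMB replicate 3), at a summed level of 14.6 and 14.7 CPM and 13.5, 9.90 and 12.2 CPM. Erythroid genes (5 tested) had 0 higher and 0 lower and a median of -0.01 (-1.004 to 3.72 with single libraries left out), and their sum was 18.7 and 0.845 CPM and 10.5, 9.24 and 9.57 CPM, with anti-PD-1 replicate 2 far below the rest. No gene of the oligodendrocyte, endothelial or neuron lists was at 0 in all 5 libraries, and 2 genes of the erythroid list were. The part of these cells in any result was not tested.

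Neutrophil genes lay in both directions. Of 15 tested, 3 of them also in another list, 6 were higher and 2 lower at an unadjusted p under 0.05, beside 1.98% and 5.26% of all genes, and the median was 0.32 (0.02 without anti-PD-1 replicate 2, with 3 higher, and 0.58 without replicate 1). The lower count was 1 without anti-PD-1 replicate 1, COMB replicate 1 or COMB replicate 2. S100a8 and S100a9, whose products form calprotectin, lay at 19.9 and 15.7 CPM against 40.3, 41.7 and 36.4 CPM and at 29.5 and 29.8 CPM against 58.6, 80.0 and 64.7 CPM (1.15 and 1.19). The granule genes Ngp and Camp lay at 15.2 and 10.8 CPM against 32.6, 35.8 and 39.3 CPM and at 3.76 and 2.99 CPM against 8.08, 9.83 and 12.6 CPM (1.47 and 1.595). All COMB libraries were above both anti-PD-1 libraries for these 4. Padi4, a histone-modifying enzyme of neutrophils, went the other way at 8.08 and 4.45 CPM against 1.63, 2.77 and 2.48 CPM (-1.44, and -0.95 without anti-PD-1 replicate 1), and so did the collagenase gene Mmp8 (-0.76). Csf3r, the most abundant gene of the list, lay at 253 and 277 CPM and 269, 243 and 254 CPM and overlapped. The summed level was 444 and 441 CPM in anti-PD-1 and 508, 516 and 517 CPM in COMB. No gene of the list was at 0 in all 5 libraries, and the part of neutrophil numbers was not tested.

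The inhibitor acts on arginine use, and genes of this pathway were read next. Nos2, which encodes the inducible nitric oxide synthase that competes for the same substrate, lay at 16.0 and 70.9 CPM in anti-PD-1 and 22.99, 184 and 210.2 CPM in COMB. COMB 2 and 3 were the highest of the 9 libraries, while COMB 1 lay between the anti-PD-1 libraries. The log2 fold change was 1.67 (SE 0.85, adjusted p 0.722), 0.97 without anti-PD-1 replicate 1 and 3.12 without replicate 2.

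Gatm, the first enzyme of creatine synthesis, uses arginine too. It lay at 219.6 and 237 CPM in anti-PD-1 and 276, 543 and 520.0 CPM in COMB, so even COMB 1 was above both anti-PD-1 libraries (0.97, SE 0.29, adjusted p 0.574). The arginine transporter gene Slc7a2 lay at 19.6 and 46.2 CPM and 62.2, 91.7 and 104 CPM, also without overlap (1.39, SE 0.66, 0.90 without anti-PD-1 replicate 1 and 2.14 without replicate 2). Ass1, which rebuilds arginine from citrulline and was the most abundant gene of the list, lay at 246 and 394 CPM and 295, 554 and 529 CPM, with overlap (0.52, 0.22 without anti-PD-1 replicate 1 and 0.90 without replicate 2). Odc1, which starts polyamine synthesis from ornithine, lay at 42.4 and 80.1 CPM and 54.7, 80.0 and 80.1 CPM (0.22, and -0.16 without anti-PD-1 replicate 1). Sat1, which starts polyamine breakdown, was lower in all COMB libraries, 362 and 327 CPM against 249, 258 and 228 CPM (-0.49, SE 0.16). Over the list of 26 genes (25 tested), 2 were higher and 1 lower at an unadjusted p under 0.05, and the median was 0.14 (0.08 to 0.22 with single libraries left out), beside 1.98% and 5.26% of all genes. The higher count was 1 without anti-PD-1 replicate 1, 4 without anti-PD-1 replicate 2, and 3 without COMB replicate 1 or any CTR or OAT-1746 replicate. The lower count was 0 without anti-PD-1 replicate 1 or COMB replicate 3, and 2 without anti-PD-1 replicate 2 or COMB replicate 1. Agmat was at 0 in all 5 libraries.

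**Figure D3:**
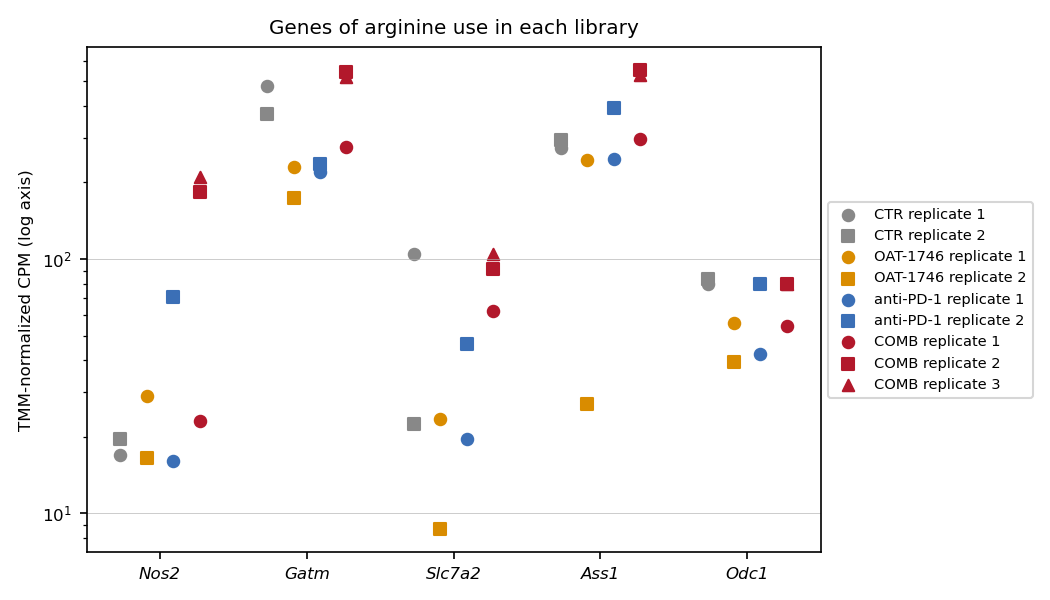
TMM-normalized CPM (log axis) of 5 genes of arginine use in each of the 9 libraries; each point is 1 library and marker shapes are replicates. Nos2 was highest in COMB replicates 2 and 3, while COMB replicate 1 lay among the other groups.

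Glycolysis and hypoxia genes had the same split within COMB. Their summed level was 7162 and 8199.6 CPM in anti-PD-1 and 6738, 12665 and 12058 CPM in COMB, so COMB 1 was the lowest and COMB 2 and 3 the highest of the 5. With all libraries 1 of 23 tested was higher at an unadjusted p under 0.05, beside 1.98% of all genes, and the median was 0.39. Without COMB replicate 1 it was 11, beside 470 of 12481 genes, and 0.59. The count was 4 without OAT-1746 replicate 1, 5 without OAT-1746 replicate 2, and 0 without either CTR library, either anti-PD-1 library, COMB replicate 2 or COMB replicate 3. MHC class II genes (12 tested) had 0 higher and 0 lower, beside 1.98% and 5.26%, and a median of 0.42 (0.27 to 0.62 with single libraries left out), summing to 24455 and 31678 CPM in anti-PD-1 and 24728, 44278 and 43161 CPM in COMB. Without COMB replicate 1, 5 were higher, beside 470 of 12481 genes, 2 without anti-PD-1 replicate 1 and 1 without either OAT-1746 library. Fc gamma receptor genes (5 tested) had 2 higher, beside 1.98% of all genes, and a median of 0.47, summing to 4186 and 4191 CPM and 3762, 5883 and 5557 CPM, with COMB 1 again the lowest of the 5. The count was 0 without either anti-PD-1 library, COMB replicate 2 or COMB replicate 3, 1 without CTR replicate 2 and 3 without COMB replicate 1. What sets COMB 1 apart was not tested.

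Genes of infiltrating monocytes and macrophages (20 tested, 3 also in another list) had 3 lower and 1 higher, beside 5.26% and 1.98% of all genes, and a median of -0.50, and in 12 all COMB libraries lay below both anti-PD-1 libraries beside 16.4% of all genes. Without OAT-1746 replicate 1 or 2 the lower count was 10, and it was 2 without CTR replicate 1, anti-PD-1 replicate 2, COMB replicate 2 or COMB replicate 3. Vcan, a matrix proteoglycan of monocytes, lay at 49.1 and 60.5 CPM in anti-PD-1 and 15.4, 6.34 and 9.93 CPM in COMB. Every COMB library was well below both anti-PD-1 libraries (-2.38, SE 0.52, DESeq2 adjusted p 0.00394). Ahnak, a scaffold protein gene, lay at 87.7 and 109 CPM and 46.7, 22.9 and 47.4 CPM (-1.34), and Ly6c2, the surface marker of inflammatory monocytes, at 716 and 869 CPM and 352, 372 and 330.4 CPM (-1.17, SE 0.87). Lyz2 lay at 4268 and 5181 CPM and 3857, 2985 and 3153 CPM (-0.50), all COMB libraries again lower. Tgfbi, the most abundant gene of the list, overlapped at 3088 and 4815 CPM and 3335, 5829.8 and 6091 CPM.

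Homeostatic microglia genes (20 tested) had 0 higher and 0 lower and a median of 0.10, -0.07 without COMB replicate 1 and 0.24 without COMB replicate 3. Their sum was 41999 and 35567 CPM in anti-PD-1 and 49324, 37492 and 36454 CPM in COMB, with COMB 1 the highest of the 5. Disease-associated microglia genes (19 tested) had 3 lower and 0 higher, beside 5.26% and 1.98% of all genes, and a median of -0.23. The count was 0 without COMB replicate 3 and 6 without OAT-1746 replicate 1 or 2. Border-associated macrophage genes (15 tested) had 1 higher and 0 lower and a median of 0.03, which was -0.10 without anti-PD-1 replicate 2 and 0.21 without replicate 1, and dendritic cell genes (17 tested) had 0 and 0 and a median of -0.19, which was -0.07 without anti-PD-1 replicate 2.

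Heat shock and chaperone genes (20 tested) had 6 lower and 0 higher at an unadjusted p under 0.05, beside 5.26% and 1.98% of all genes, and a median of -0.43, which was -0.05 without anti-PD-1 replicate 2, with 3 lower. Hspa1a, an inducible HSP70 gene, lay at 33.7 and 60.1 CPM in anti-PD-1 and 5.41, 6.34 and 6.73 CPM in COMB. It was low and even in COMB and spread in anti-PD-1 (-2.93, SE 0.70, adjusted p 0.426). In a fit of the 5 libraries alone, Hspa1a and its neighbor Hspa1b were the only 2 genes that edgeR called.

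For the remaining lists the counts at an unadjusted p under 0.05 stand beside 1.98% higher and 5.26% lower of all genes, and the range of each median with single libraries left out is given in parentheses. Complement genes (16 tested) had 2 higher and 0 lower and a median of 0.22 (0.18 to 0.30), and Toll-like receptors (16) 2 higher and 1 lower and 0.07 (-0.01 to 0.14). Matrix metalloproteinases and inhibitors (14) had 0 higher and 2 lower and 0.13 (0.11 to 0.34), and oxidative burst genes (18) 0 and 0 and 0.12 (0.03 to 0.20). MHC class I processing genes (22) had 0 higher and 1 lower and 0.17, which was 0.00709 without anti-PD-1 replicate 1 and 0.31 without COMB replicate 1. Cholesterol genes (19) had 0 higher and 1 lower and -0.10, which was 0.00435 without anti-PD-1 replicate 2 and 0.00981 without COMB replicate 3, and amino acid and unfolded protein response genes (22) 0 higher and 2 lower and -0.02 (-0.07 to 0.05), with 4 lower without anti-PD-1 replicate 1, and 3 lower and 2 higher without either OAT-1746 library. The higher count of complement was 4 without COMB replicate 1, 1 without anti-PD-1 replicate 1 or COMB replicate 3, and 0 without anti-PD-1 replicate 2 or COMB replicate 2, and that of Toll-like receptors was 0 without COMB replicate 2.

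S phase genes (30) had 1 higher and 0 lower and a median of 0.15, and mitosis genes (30) 0 and 0 and 0.29, with all COMB libraries above both anti-PD-1 libraries in 10, beside 10.03% of all genes. Without anti-PD-1 replicate 1 these medians were -0.01 and 0.0995, and without replicate 2 they were 0.39 and 0.53. The higher count of S phase was 4 without OAT-1746 replicate 2 and 3 without anti-PD-1 replicate 2, and that of mitosis was 3 without either OAT-1746 library. The 7 tested genes of the mitochondrial genome had 0 and 0 and a median of 0.02, which was -0.49 without anti-PD-1 replicate 1, 0.78 without replicate 2 and -0.41 without COMB replicate 1. Summed over the whole list, 5536 and 13593 CPM in anti-PD-1 and 12921, 6393 and 7649 CPM in COMB overlapped widely. Cytosolic ribosomal protein genes (77) had 0 and 0 and a median of 0.20, and 77 were positive, 75 when scaled by library size alone and 74 with the length and GC correction. Without COMB replicate 2 the ribosomal median was 0.07 with 62 positive, without anti-PD-1 replicate 2 it was 0.12 with 71 positive, and without COMB replicate 1 it was 0.32 with 4 higher.

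**Figure D4:**
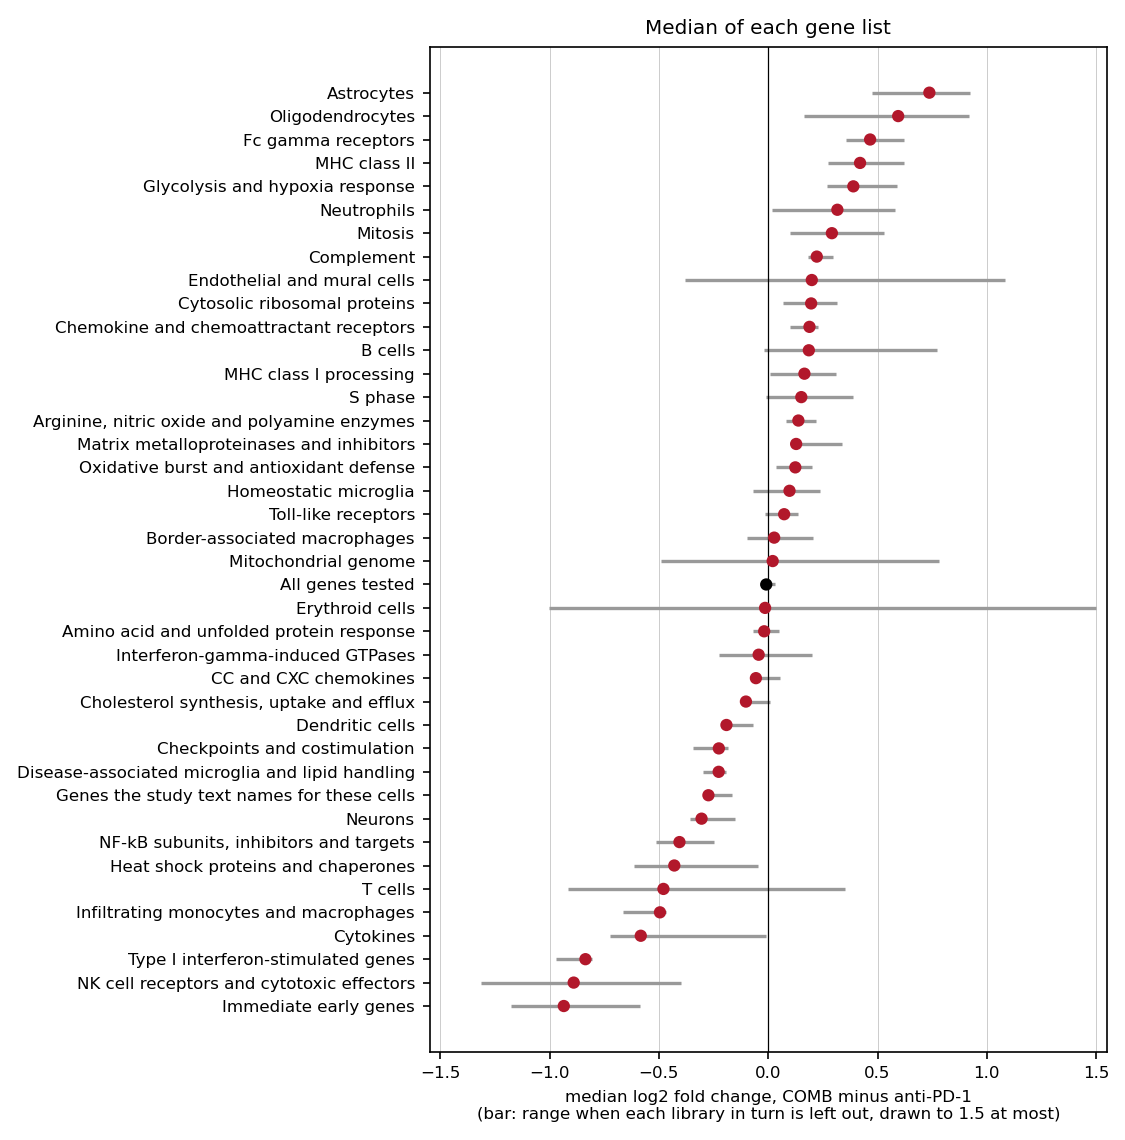
Median log2 fold change (COMB minus anti-PD-1) of the tested genes of each list, with bars for the range when each of the 9 libraries in turn is left out; bars beyond the axis are cut off. The lists of immediate early genes (-0.94), NK cell genes (-0.89) and type I interferon-stimulated genes (-0.84) lay lowest and astrocyte genes (0.74) highest.

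The study's text names 39 genes for these cells, all tested and 35 of them in another list as well. At an unadjusted p under 0.05, 9 were lower and 1 higher, beside 5.26% and 1.98% of all genes. The median was -0.27 (-0.17 without COMB replicate 1). The study chose the genes it profiled for a significant change against CTR in these same libraries, so the counts are no separate evidence. The lower count was 5 without anti-PD-1 replicate 2 and 15 without OAT-1746 replicate 1. Besides those above, Cd69, an early activation antigen, lay at 30.2 and 35.8 CPM in anti-PD-1 and 19.4, 19.3 and 20.9 CPM in COMB (-0.73). The chemokine receptor gene Cxcr4 lay at 166 and 270.0 CPM and 105, 129 and 124 CPM (-0.87, and -0.48 without anti-PD-1 replicate 2), and the lipoprotein gene Apoe at 1794 and 1575 CPM and 1271, 1121 and 1374 CPM (-0.42). All 3 were lower in every COMB library. The higher one was the endotoxin receptor gene Tlr4, at 97.8 and 94.0 CPM and 113, 139 and 125 CPM (0.39, SE 0.14).

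Whether the inhibitor's contrast differs with the antibody was tested by the interaction, (COMB minus anti-PD-1) minus (OAT-1746 minus CTR), whose contrasts share no library. By edgeR 45 genes passed an adjusted p of 0.05, 44 with a negative interaction (0.351%) and 1 with a positive one (0.00798%). By sign, all 44 lay lower with the inhibitor when the antibody was given and higher with it when no antibody was given. In 43 genes all COMB libraries lay below both anti-PD-1 libraries, beside 16.4% of all genes, and 38 had an unadjusted p under 0.05 in the contrast COMB minus anti-PD-1, beside 7.23%. The interaction contains this contrast, so its selection favors such genes and these counts are no separate evidence. Over all 45 genes that passed, the median log2 fold change was -0.85 with the antibody and 1.43 without it. Of the 38 immediate early genes 8 were among the 44, beside 0.351% of all genes. In the contrast of OAT-1746 with CTR, edgeR called 0 genes, with 4049 at an unadjusted p under 0.05. Genes of infiltrating monocytes and macrophages summed to 10435 and 2177 CPM in OAT-1746 and 14582 and 13582 CPM in CTR. Homeostatic microglia genes summed to 57183 and 70027.5 CPM in OAT-1746 and 29023 and 42691 CPM in CTR. The part of this cell mix in the interaction was not tested. Over all 12538 genes, which are not independent replicates, the log2 fold changes of both contrasts had a Spearman correlation of -0.15 and a Pearson correlation of -0.09.

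Egr1 shows the pattern in the 9 libraries: 767 and 851 CPM in CTR, 2591 and 3730.0 CPM in OAT-1746, 655 and 1117 CPM in anti-PD-1 and 224, 231 and 256 CPM in COMB. The OAT-1746 libraries were the highest and the COMB libraries the lowest, and the interaction was -3.87 (SE 0.37, adjusted p 0.0285). Dusp8, a phosphatase gene for JNK and p38, lay at 4.63 and 4.76 CPM, 20.7 and 37.5 CPM, 6.48 and 10.8 CPM and 3.56, 3.89 and 2.76 CPM in the same order of groups (-3.97, SE 0.47, adjusted p 0.0289). Atf4, the transcription factor of the amino acid response, lay at 109 and 109 CPM, 213 and 279.8 CPM, 146 and 176 CPM and 102, 92.1 and 93.1 CPM (-1.92, SE 0.24, adjusted p 0.0289), in the same order. Tnf passed with little difference between OAT-1746 and CTR (0.32), and Tsc22d3, a glucocorticoid-induced gene, with little between COMB and anti-PD-1 (-0.18). Ung, a uracil DNA glycosylase gene and the 1 positive gene, was set apart by the groups without the antibody, at 8.89 and 5.88 CPM in CTR and 1.51 and 0.744 CPM in OAT-1746 beside 4.39 and 4.85 CPM in anti-PD-1 and 5.34, 6.01 and 5.39 CPM in COMB. The count of 45 rested on single libraries. It was 0 without CTR replicate 1, CTR replicate 2, anti-PD-1 replicate 2, COMB replicate 2 or COMB replicate 3, 26 without OAT-1746 replicate 2, 35 without anti-PD-1 replicate 1, 424 without COMB replicate 1 and 2734 without OAT-1746 replicate 1. All 45 kept their sign under the 18 alternatives that gave a value for each. These genes were selected for their interaction and the alternatives reuse the same libraries, so a kept sign is no separate evidence. For the interferon list the interaction passed in 0 genes. Its median was -0.84 with the antibody and -0.65 without it, and the latter rested on OAT-1746 replicate 2, since the summed level of replicate 1 lay between those of the CTR libraries.

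**Figure D5:**
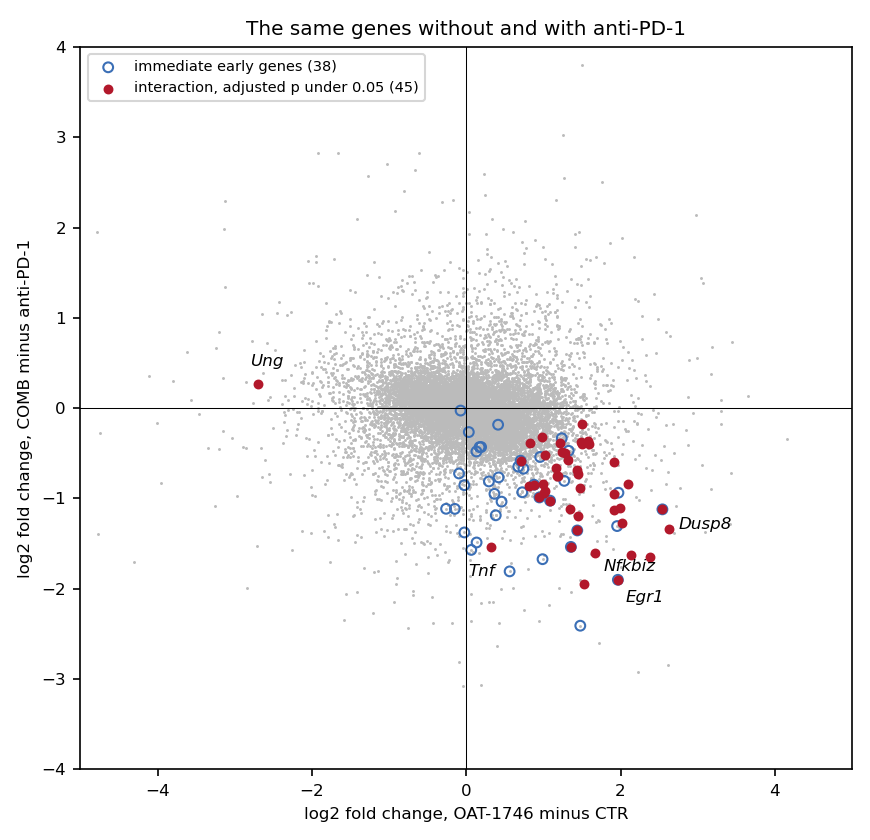
Log2 fold change of OAT-1746 over CTR (x axis) against that of COMB over anti-PD-1 (y axis) for the tested genes, with the 45 interaction genes filled and the 38 immediate early genes circled; points outside the axes are not drawn. The 44 genes with a negative interaction lie at the lower right and Ung at the upper left.

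Each group held 2 or 3 libraries, a single library moved most counts, and the antibody label of anti-PD-1 replicate 2 could not be resolved. The labels do not say which libraries were handled together, so no batch could be taken into account.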

How the data were processed

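RNA-seq of CD11b+ cells was taken in 9 libraries. The authors deposited counts (raw read pairs per gene, no normalization and no expression filter) after Trimmomatic, STAR alignment to mm10, Picard and HTSeq; the annotation release is not stated. Groups follow the titles. Of 53801 genes, 53620 had a GENCODE M21 entry and 181 unmatched IDs were left out; 21890 were protein-coding, and filterByExpr (minimum count 10) kept 12538. In R 4.3.3, edgeR 4.0.16 fitted a quasi-likelihood model with TMM and 4 group means to all 9 libraries (common BCV 0.214, prior df 4.15); tests were two-sided, with Benjamini-Hochberg adjustment over all tested genes at 0.05. Log2 CPM for correlations used a prior count of 2.

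The members and the gene lists (cell types, pathways and gene families) were chosen with earlier results of these data known, and lists are described by counts and medians, with no test. The named genes are the 10 lower and 10 higher with the smallest p at a mean of 5 CPM or more without overlap (9 of the higher are given), genes of arginine use (Nos2 and Odc1 are given), Pdcd1, genes in the study's text and the 3 most abundant of each list; other genes were named after their values were seen. Genes of neurons are given only as a list. Alternatives were DESeq2 1.42.0, limma voom 3.58.1 with sample weights, other scalings and filters, all gene types, robust estimation, a replicate block, a loess correction (span 0.5) for gene length and GC content, a log2 fold change over 1, only the 5 libraries, and leaving out each library; a group left with 1 library is assumed to vary like the others. Each of these fits filters genes anew, so a list median with a library left out can take in members that the full fit did not test (T cells 17 in place of 15), while list counts keep the members of the full fit. Promoters are from RefSeq (GRCm38.p6). The steps were tested on simulated data. Figures used matplotlib 3.10.9 in Python 3.11.15.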

Additional observations from a re-analysis of the deposited data

Results flagged for a closer look

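The interaction, which tests whether the log2 fold change of COMB over anti-PD-1 differs from that of OAT-1746 over CTR, set apart 45 genes by edgeR. A difference between these contrasts is what singled out the genes below, and no explanation was tested. The interaction log2 values of transcription factor genes were -3.87 for Egr1, -2.80 for Jun, -2.11 for Jund, -2.89 for Atf3, -1.92 for Atf4, -1.29 for Klf10 and -2.95 for Tgif2. Those of signaling genes were -1.95 for Map3k8, -3.97 for Dusp8, -3.27 for Nfkbiz, -3.05 for Errfi1, -3.67 for Gem and -1.86 for Tnf. The others were -1.94 for Midn, -1.73 for Ier2, -1.94 for Ier5, -3.48 for Adamts1, -1.68 for Tsc22d3 and 2.97 for Ung. All 3 COMB libraries lay below both anti-PD-1 libraries for each named gene except Tsc22d3 and Ung, beside 16.4% of all genes. For the same genes both OAT-1746 libraries lay above both CTR libraries. The interaction is built from these contrasts, so its selection favors such genes and this is no separate evidence.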

How the results depend on the processing

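The edgeR count of 0 called genes was 0 under DESeq2 size factors, library size, at least 10 counts in every library, all gene types, robust estimation, the length and GC correction and a log2 fold change over 1. It was 47 by DESeq2, 35 by voom, 2 with no low-count filter, 2 with only the 5 libraries, and 0 to 52 with each library left out (52 and 41 without OAT-1746 replicates 1 and 2, 5 without anti-PD-1 replicate 1). The 907 genes at an unadjusted p under 0.05 were 1994 by voom, 68 against a log2 fold change over 1, and 453 to 1283 with each library left out (453 without COMB replicate 3, 479 without COMB replicate 2, 514 without anti-PD-1 replicate 2). The 45 interaction genes were 1025 by DESeq2 and 428 by voom, both with all 45, 24 by library size (23 of the 45), 146 with no low-count filter, 18 with all gene types, 0 against a log2 fold change over 1, and 0 to 2734 with each library left out (0 without CTR replicates 1 and 2, anti-PD-1 replicate 2 and COMB replicates 2 and 3; 26 without OAT-1746 replicate 2, 424 without COMB replicate 1 and 2734 without OAT-1746 replicate 1). The immediate early median of -0.94 ran from -1.18 (without anti-PD-1 replicate 1) to -0.59 (without anti-PD-1 replicate 2).

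With replicate number as a replicate block, 0 genes were called, 369 had an unadjusted p under 0.05 and the interaction called 0; with the length and GC correction added to the replicate block these were 0, 394 and 0. Only the numbers 1 and 2 are shared, and no pairing is stated: the deviations of like-numbered anti-PD-1 and COMB libraries from their group means correlated at 0.0999 and -0.0438 across genes. Fcer1g had a log2 fold change of -0.0841 with both and -0.0380 with the correction alone.

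Single genes changed sign without 1 library: Fcer1g to -0.0664 without COMB replicate 2 (0.257 without COMB replicate 1), and, without anti-PD-1 replicate 2, Csf3r to 0.0179 (-0.121 without replicate 1), Ifng to -0.35 (1.496 without replicate 1) and Il1b to 0.79 (-1.38 without replicate 1). Odc1 went to -0.16 without anti-PD-1 replicate 1 (0.76 without replicate 2). Fewer libraries leave less to estimate the spread from; beyond that, the causes were not tested. The share of lower genes at an unadjusted p under 0.05 was 61.1% with all gene types, and the median of all genes moved by less than 0.1 under each scaling.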
